A study of Mus musculus with 16 samples.

Results

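The regions described here were open in hi-77-/- progenitors that expressed GATA2, open in those that expressed the variant 9aa-Ins, and below the peak cutoff in hi-77-/- progenitors with an empty vector. They were chosen by the presence of ATAC-Seq peaks, a measure of where a transposase can reach the DNA. In each library the 49000 peaks with the highest -log10 p were taken, and peaks of the 16 libraries sharing 1 bp or more were joined, which gave 90549 regions. A region was a member when at least 3 of 4 GATA2 libraries, at least 3 of 4 9aa-Ins libraries and 0 of 4 hi-77-/- empty libraries had a peak in it. This held for 467 regions, 0.516% of all regions.

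All libraries came from mouse fetal liver progenitors made immortal by HoxB8 under estrogen control (HoxB8-ER), grown with β-estradiol, incubated with retrovirus for 3 d and sorted for the GFP that the vector encodes. There were 4 groups of 4 libraries. Cells with an intact upstream enhancer of Gata2, which gives the lines their name, carried the empty vector (hi-77+/+ empty). Cells with the enhancer deleted from both alleles carried the empty vector (hi-77-/- empty), HA-tagged GATA2, or 9aa-Ins, in which amino acids are inserted in the spacer between the zinc fingers. Both proteins came from a retroviral promoter and not from the Gata2 locus, and the labels name no separate lines within a genotype, so p-values measure the spread between libraries. In these bulk libraries, fewer open cells and less opening per cell cannot be told apart. Both openings were scored against the same 4 hi-77-/- empty libraries.

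GATA2 is a zinc finger transcription factor of blood stem and progenitor cells. Its C-terminal finger binds the WGATAR motif, and the N-terminal finger modifies that binding and holds cofactors. GATA2 often works beside RUNX1, ETS factors and the E-box binding SCL/TAL1 complex, mostly at enhancers far from promoters. C/EBP proteins are leucine zipper factors that drive granulocyte and monocyte genes and bind sites of the form TTGCNNAA.

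Before the values, the reference sequence (GRCm38, plus strand) of the median summit and 100 bp on each side is shown for 5 members that carry a WGATAR motif, because this motif is the one GATA2 binds. They were taken in order of median rank from the named members outside annotated exons, 1 chromosome being left out, with the motif in capitals on whichever strand it lies.
Dtnb intron, chr12:3582734-3582934: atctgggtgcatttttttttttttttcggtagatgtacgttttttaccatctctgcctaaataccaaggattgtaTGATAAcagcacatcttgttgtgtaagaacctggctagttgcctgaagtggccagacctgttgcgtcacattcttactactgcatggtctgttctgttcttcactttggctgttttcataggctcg
Zbtb16 intron, chr9:48745096-48745296: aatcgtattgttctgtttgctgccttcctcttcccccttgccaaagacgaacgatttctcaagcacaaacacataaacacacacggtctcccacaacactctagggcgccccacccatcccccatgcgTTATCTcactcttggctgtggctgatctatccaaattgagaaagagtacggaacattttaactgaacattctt
Tomm70a intron, chr16:57132427-57132627: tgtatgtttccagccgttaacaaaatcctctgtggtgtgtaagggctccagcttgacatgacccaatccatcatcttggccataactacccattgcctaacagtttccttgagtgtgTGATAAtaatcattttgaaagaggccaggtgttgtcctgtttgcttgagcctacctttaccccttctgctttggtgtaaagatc
Camk1d intron, chr2:5318781-5318981: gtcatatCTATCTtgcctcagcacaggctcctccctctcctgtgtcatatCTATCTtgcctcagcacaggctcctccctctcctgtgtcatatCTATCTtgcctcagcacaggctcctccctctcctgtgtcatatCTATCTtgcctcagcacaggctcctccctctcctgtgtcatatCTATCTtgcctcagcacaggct
Zbtb16 intron, nearest start site Nnmt, chr9:48666783-48666983: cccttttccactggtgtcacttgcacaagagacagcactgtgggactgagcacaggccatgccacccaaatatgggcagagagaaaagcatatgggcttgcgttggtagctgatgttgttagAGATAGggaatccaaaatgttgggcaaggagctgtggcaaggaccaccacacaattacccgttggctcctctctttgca
The Camk1d member held 5 sites, in copies of a tandem repeat, and each of the other 4 held 1 site. The site lay 22.5 bp from the summit in Dtnb, 30.5 bp in Zbtb16 and 19.5 bp in Tomm70a.

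A second set shows 3 named members, taken in the same way, that carry a C/EBP motif and no WGATAR, again with the motif in capitals. This motif was picked out after the motif shares had been seen.
Sgms2 intron, chr3:131474599-131474799: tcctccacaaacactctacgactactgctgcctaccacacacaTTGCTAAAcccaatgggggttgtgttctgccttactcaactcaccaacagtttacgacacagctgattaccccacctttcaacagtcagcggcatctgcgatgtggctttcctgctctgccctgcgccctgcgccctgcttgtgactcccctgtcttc
Fgd6 intron, chr10:94098232-94098432: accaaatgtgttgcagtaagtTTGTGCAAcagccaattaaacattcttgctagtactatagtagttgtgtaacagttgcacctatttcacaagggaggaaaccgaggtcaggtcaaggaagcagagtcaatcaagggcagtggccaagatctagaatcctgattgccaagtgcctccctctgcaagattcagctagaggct
between genes, nearest start site Arl11, chr14:61320811-61321011: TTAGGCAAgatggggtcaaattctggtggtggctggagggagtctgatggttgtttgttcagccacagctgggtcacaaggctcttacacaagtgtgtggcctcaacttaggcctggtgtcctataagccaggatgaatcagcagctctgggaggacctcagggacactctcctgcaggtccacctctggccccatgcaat
Here the C/EBP motif lay 53.5 bp from the summit in Sgms2, 75.5 bp in Fgd6 and 96.5 bp near Arl11.

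Members were regions of modest peaks. Each peak was given its percentile rank in the list of its library, where a low value is a strong peak. The median rank of the members was 66.8, 61.3, 59.9 and 59.5% in GATA2 replicates 1 to 4 and 73.2, 68.8, 66.5 and 66.7% in 9aa-Ins replicates 1 to 4. Members stood at 61.9 ± 3.37% in GATA2 and 68.8 ± 3.11% in 9aa-Ins libraries (SD, n = 4 each), and replicate 1 of GATA2 lay inside the 9aa-Ins range. The rule used these ranks, through the cutoff, so the difference of -6.93 points is a description with no test. It moved with the libraries required, from -10.9 to -10.2 points when 1 GATA2 library was left out and the other 3 were all required, and from -3.81 to -2.79 points when this was done for 9aa-Ins. The GATA2 lists held 49852 to 77687 peaks before the cutoff and the 9aa-Ins lists 70219 to 107594. With all deposited peaks taken, and ranks set within the complete lists, the difference was -0.978 points.

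The rule was met with room to spare in 178 members, which had a peak in all 8 libraries of both proteins, at a median rank of 58.7%. The 68 members with exactly 3 and 3 libraries sat lower, at 78.9%. Just outside the rule were 192 regions with only 2 9aa-Ins libraries (76.1%), 269 with only 2 GATA2 libraries (75.5%) and 582 that failed by 1 hi-77-/- empty library (68.6%). Of all regions, GATA2 opened 2953 (3.26%) and 9aa-Ins opened 2272 (2.51%) by the same presence rule, so members were 15.8% of the GATA2 list and 20.6% of the 9aa-Ins list. GATA2-only regions, with 0 of 4 9aa-Ins libraries, numbered 1930, and 9aa-Ins-only regions, with 0 of 4 GATA2 libraries, numbered 1130.

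Absence from hi-77-/- empty meant absence from its 49000 strongest peaks. In the complete deposited lists, 337 of the 467 members (72.2%) had a peak in at least 1 hi-77-/- empty library. By number of libraries, 106 members had one in 1, 109 in 2, 89 in 3 and 33 in all 4. The other 130 members had no deposited hi-77-/- empty peak.

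To score libraries on regions they did not help to choose, the members were chosen again without each library in turn. Without a GATA2 or 9aa-Ins library, 3 of 3 others of its group were required, which left 298 to 372 regions. Without a hi-77-/- empty library, absence from the others was required, which left 593 to 652 regions. The groups were thus scored on unlike region sets. Of the regions chosen without it, 73.4, 87.5, 89.8 and 91.6% had a peak in GATA2 replicates 1 to 4, and 81.7, 91.0, 92.4 and 88.4% had one in 9aa-Ins replicates 1 to 4. In held-out hi-77-/- empty replicates 1 to 4 the share was 22.9, 22.0, 21.2 and 28.4%. No library of either protein came near these values. The held-out share was 61.9 percentage points higher with GATA2 than in hi-77-/- empty and 64.7 points higher with 9aa-Ins (two-sided exact permutation tests, p = 0.0286 each, the smallest that 4 against 4 allows, and 0.0571 after Benjamini-Hochberg adjustment over 4 tests). The regions had been chosen by the group labels of the other libraries, and this choice was not repeated for each permutation. The p-values of the held-out tests are thus descriptive only. GATA2 and 9aa-Ins overlapped, at 85.6 ± 8.30% and 88.4 ± 4.74% (n = 4 each, exact permutation adjusted p = 0.600). The sign of that small difference turned when any 9aa-Ins library was left out.

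**Figure D1:**
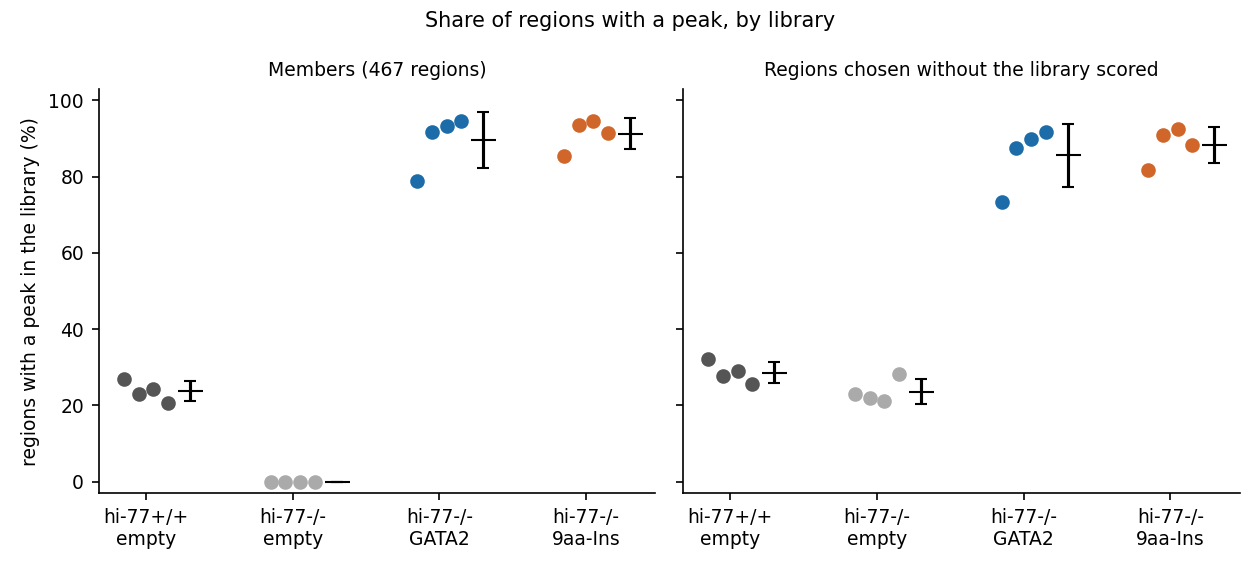
Share of regions with a peak in each library (%), for the 467 members on the left and, on the right, for regions chosen without the library scored. Points are libraries in replicate order and bars are mean ± SD (n = 4). The right panel shows hi-77-/- empty at 21.2 to 28.4%, beside hi-77+/+ empty, and far below both rescued groups. On the left the rule sets hi-77-/- empty to 0.

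The hi-77+/+ empty libraries, which the rule did not use, had a peak among their 49000 strongest in only a minority of members. The share was 27.0, 23.1, 24.2 and 20.6% in replicates 1 to 4. By number of libraries, 268 members (57.4%) had no hi-77+/+ empty peak and are called closed there, 121 (25.9%) had a peak in 1 or 2 and 78 (16.7%) had one in 3 or 4 and are called open there. Closed thus means absence from the 49000 strongest peaks. In the complete deposited lists only 98 members had no hi-77+/+ empty peak, and 140 had one in all 4 libraries. The background for the share called open is 12.6%, or 4064 of all 32267 regions with 0 of 4 hi-77-/- empty libraries. Those 4064 regions were 4.49% of all regions. Of the 32267 regions, 45.9% had no hi-77+/+ empty peak, 30.5% had one in 1 library and 10.97% in 2. Members were therefore above this background both in the open and in the closed class and below it in between, as a description with no test. The background can hold regions made by a peak of 1 library alone, which members cannot be. The classes are thus not compared like for like. When hi-77-/- empty libraries were held out, the hi-77+/+ empty libraries averaged 28.6 ± 2.68% and the held-out hi-77-/- empty libraries 23.6 ± 3.22% (n = 4 each). These ranges overlapped (difference 4.95 points, exact permutation p = 0.0857, adjusted 0.114). With all deposited peaks taken, the difference was 20.7 points (exact permutation adjusted p = 0.0381). The complete lists were of unlike length, with 76022 to 111743 peaks in hi-77+/+ empty and 63924 to 74292 in hi-77-/- empty. The part of list length in this difference was not tested. With hi-77-/- empty scored on its complete lists and hi-77+/+ empty on 49000 peaks, the difference turned to -8.32 points. The call and the direction thus depended on how deep the lists were read.

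Members were open in hi-77+/+ empty more often than regions opened by a single protein. GATA2-only regions had a hi-77+/+ empty peak in 15.6, 13.9, 13.8 and 11.9% of cases in replicates 1 to 4, and 9aa-Ins-only regions in 6.73, 5.58, 5.93 and 5.31%. Members exceeded GATA2-only regions by 9.92 points and 9aa-Ins-only regions by 17.8 points, in 4 of 4 libraries each (two-sided exact sign-flip permutation test, p = 0.13 each, the smallest that 4 libraries allow). With absence required of all deposited hi-77-/- empty peaks, the excess over GATA2-only regions was 1.23 points (exact sign-flip permutation p = 0.5). Members in 4 of 4 hi-77+/+ empty libraries made up 9.21%, against 4.09% of GATA2-only and 0.796% of 9aa-Ins-only regions. Members also had stronger peaks. Their median rank was 61.9% against 67.0% for GATA2-only regions in GATA2 libraries. In 9aa-Ins libraries it was 68.8% against 77.7% for 9aa-Ins-only regions. They were longer too (median 380 bp against 272.5 and 304 bp). The rule asked members for peaks in both groups and used ranks through the cutoff, so it bears on both strength and length. The part of strength and length in the excess was not tested.

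**Figure D2:**
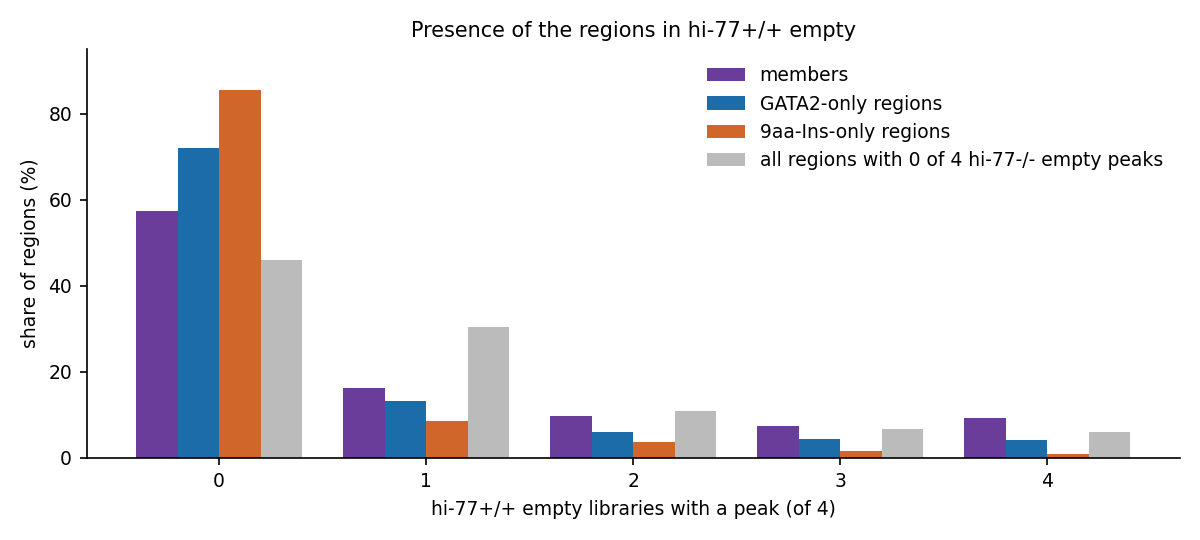
Share of regions (%) by the number of hi-77+/+ empty libraries with a peak (0 to 4), for members, GATA2-only regions, 9aa-Ins-only regions and all 32267 regions with no hi-77-/- empty peak among the 49000. The bar at 0 is 57.4% for members, 72.1% for GATA2-only and 85.5% for 9aa-Ins-only regions.

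As a set, members held both of the motifs that marked the single-protein regions separately. A WGATAR motif (AGATAA or AGATAG or TGATAA or TGATAG, either strand, in the window of 100 bp on each side of the median summit) was found in 51.2% of members, 76.2% of GATA2-only regions, 16.5% of 9aa-Ins-only regions and 26.4% of all regions. The C/EBP motif was found in 31.9% of members, 12.02% of GATA2-only regions, 39.1% of 9aa-Ins-only regions and 11.3% of all regions. So members lay between the GATA2-only and 9aa-Ins-only regions for both motifs. A match is a description of letters and not of binding, and differences in share between region sets were not tested.

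Both motifs occurred together in 75 members, or 16.1%. That share was 9.43% of GATA2-only regions, 5.66% of 9aa-Ins-only regions and 3.35% of all regions. A set rich in each motif holds both together more often even where the motifs fall independently. An excess beyond that was not tested. A WGATAR without C/EBP motif was in 164 members (35.1%), a C/EBP motif without WGATAR in 74 (15.8%) and neither in 154 (33.0%). Among the 130 members without any deposited hi-77-/- empty peak, 60.8% had a WGATAR, 37.7% a C/EBP motif and 25.4% both.

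Single WGATAR sites were the rule. Of 313 sites in members, 143 (45.7%) read AGATAA, the form that made up 48.3% of sites in GATA2-only regions, 25.4% in 9aa-Ins-only regions and 32.8% in all regions. At least 2 sites were in 13.3% of members, against 33.9% of GATA2-only and 1.59% of 9aa-Ins-only regions. An E-box (CANNTG) 6 to 14 bp before a WGATAR, the composite that SCL/TAL1 and GATA factors share, was in 4.50% of members, 8.60% of GATA2-only regions and 2.02% of all regions. Paired WGATAR sites up to 5 bp apart were in 2.36% of members, 3.42% of GATA2-only regions and 0.523% of all regions. A plain E-box was in 76.0% of members and 66.8% of all regions.

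Motifs of other progenitor factors differed less between the sets. The RUNX motif TGTGGT was in 36.4% of members, 32.2% of GATA2-only regions, 31.7% of 9aa-Ins-only regions and 24.6% of all regions. The AP-1 motif TGANTCA was in 17.99% of members, 18.8% of GATA2-only regions, 19.3% of 9aa-Ins-only regions and 11.2% of all regions. In the same order, the ETS motif (AGGAAGT or CGGAAGT) stood at 18.6, 16.7, 24.6 and 18.9%. The MEIS motif TGACAG stood at 16.5, 22.4, 17.7 and 16.4%. Members closed in hi-77+/+ empty had a WGATAR in 53.0%, a C/EBP motif in 34.0%, a RUNX motif in 39.9% and an AP-1 motif in 13.8% of cases. Members open there had them in 41.0, 21.8, 28.2 and 28.2% of cases, so AP-1 was the motif of these 4 with the higher share in members open in hi-77+/+ empty.

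Where present, both motifs sat near the summit. The closest WGATAR of a member lay a median 32.5 bp from the median summit, against 25.5 bp in GATA2-only, 51.0 bp in 9aa-Ins-only and 42.5 bp in all regions. The closest C/EBP motif lay a median 26.5 bp away in members, 44.5 bp in GATA2-only, 30.5 bp in 9aa-Ins-only and 40.5 bp in all regions. In members both motifs thus lay closer to the summit than in all regions.

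**Figure D3:**
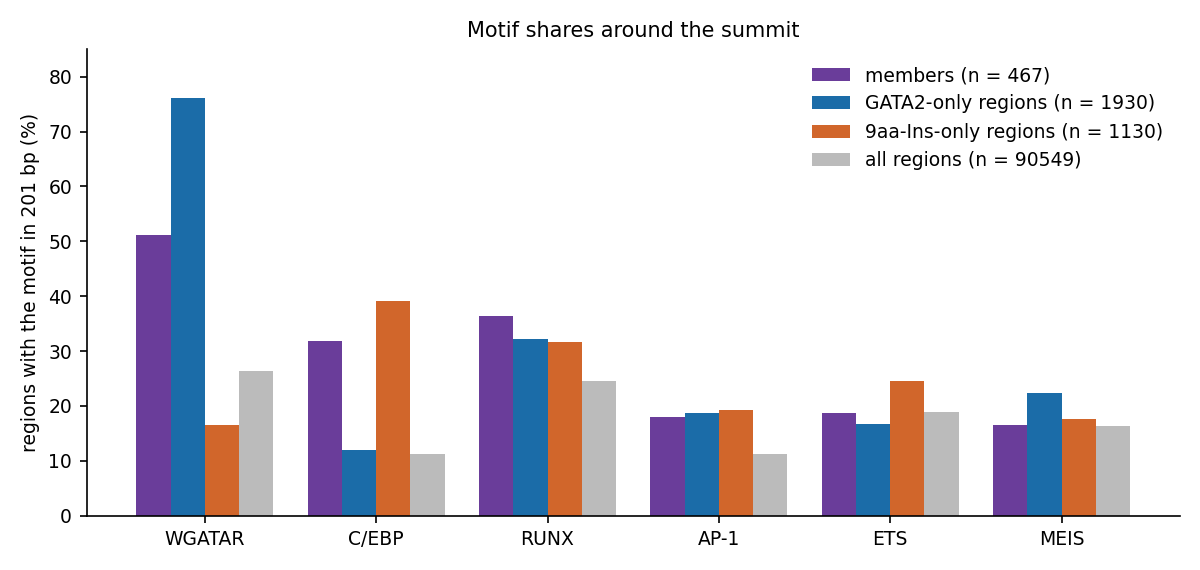
Share of regions (%) with each motif within 100 bp of the median summit, for 467 members, 1930 GATA2-only regions, 1130 9aa-Ins-only regions and all 90549 regions. Members stand between the single-protein sets for WGATAR (51.2%) and C/EBP (31.9%).

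The 2 proteins ranked the members differently by motif. In GATA2 replicates 1 to 4 the 164 members with a WGATAR and no C/EBP motif had a median rank of 58.8, 52.9, 55.4 and 55.7%, and the 74 members with a C/EBP motif and no WGATAR 72.6, 69.5, 66.3 and 70.7%. In 9aa-Ins replicates 1 to 4 the WGATAR members had 77.02, 71.0, 67.2 and 67.8%, and the C/EBP members 65.9, 65.7, 58.3 and 56.6%. WGATAR members were the stronger class in 4 of 4 GATA2 libraries and C/EBP members in 4 of 4 9aa-Ins libraries.

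By group, the WGATAR members stood at 55.7 ± 2.42% with GATA2 and 70.8 ± 4.49% with 9aa-Ins, and the C/EBP members at 69.8 ± 2.68% and 61.6 ± 4.88% (n = 4 each). The ranges of the groups did not overlap in either class. Members with both motifs followed the WGATAR class, at 55.4 ± 5.94% and 67.6 ± 4.15%, with GATA2 replicate 1 at 63.8% inside the 9aa-Ins range. Members with neither motif stood at 68.5 ± 0.684% and 70.8 ± 1.42%, and these ranges overlapped. Ranks were taken over the members with a peak in the library, and GATA2 replicate 1 had a peak in 66.2% of C/EBP members and 84.8% of WGATAR members. These classes were formed after the values had been seen, so they carry no test.

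Each of the 9 motifs searched was also tested alone, as the median rank of members with the motif minus that of members without it in each library, GATA2 against 9aa-Ins. For WGATAR this was -13.1 ± 3.18 points with GATA2 and 2.34 ± 2.53 points with 9aa-Ins, and for C/EBP -0.258 ± 2.56 and -5.92 ± 1.07 points (n = 4 each). The groups did not overlap for WGATAR, C/EBP, RUNX and the E-box with WGATAR (two-sided exact permutation p = 0.0286, the smallest possible, and 0.0643 after adjustment over 9 tests). The RUNX difference was small, with 2.80 ± 1.54 points in GATA2 and -0.0679 ± 0.452 points in 9aa-Ins libraries. No motif passed an adjusted threshold of 0.05. These 9 tests were not planned, and the rule used the same ranks through the cutoff, so their p-values are descriptive only.

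**Figure D4:**
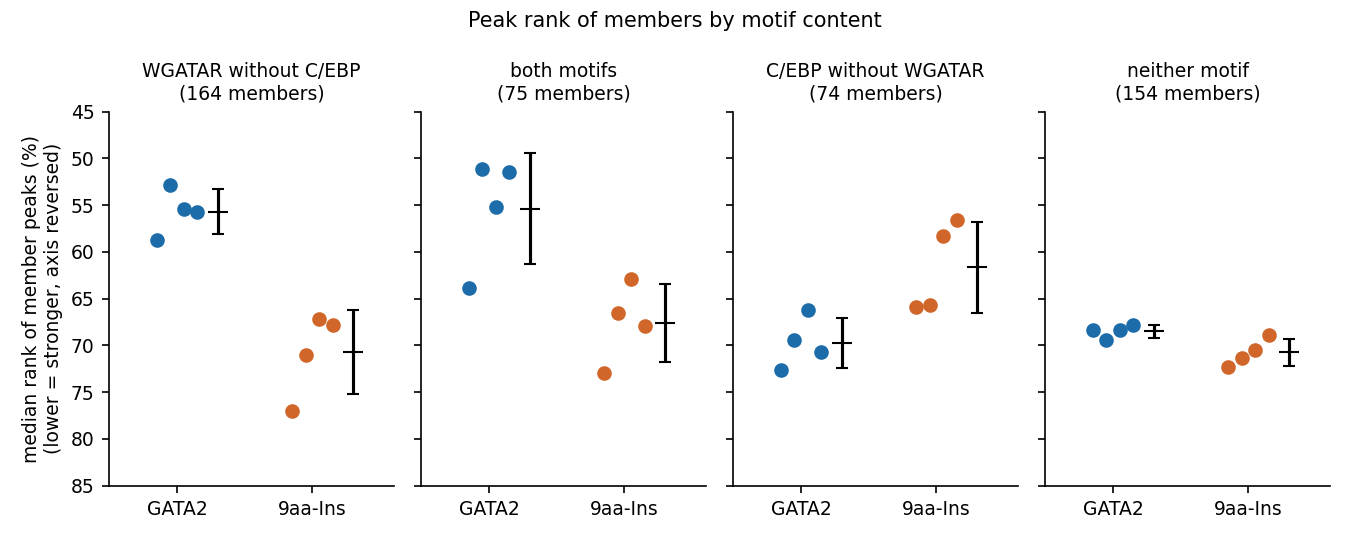
Median percentile rank of member peaks (%, lower is stronger, axis reversed) in each GATA2 and 9aa-Ins library, for 4 classes by motif content. Points are libraries in replicate order and bars are mean ± SD (n = 4). The GATA2 points lie above the 9aa-Ins points for WGATAR members (55.7 against 70.8%) and below them for C/EBP members (69.8 against 61.6%).

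Members were mostly distal. Of the 467, 203 (43.5%) lay in introns, 193 (41.3%) between genes, 54 (11.6%) within 3 kb of a protein-coding start site, 11 in UTR exons and 6 in coding exons. In all, 88.4% lay over 3 kb from a start site, against 85.8% of GATA2-only, 86.0% of 9aa-Ins-only and 73.3% of all regions. The median distance was 17.9 kb, and 68 members lay over 100 kb away. Members within 3 kb of a start site carried a WGATAR in 27 of 54 cases, and the distal ones in 51.3%.

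Merged member regions were longer than those of either protein alone, with a median of 380 bp against 272.5 bp for GATA2-only, 304 bp for 9aa-Ins-only and 271 bp for all regions. Regions with a peak in all 16 libraries were longer still, with a median of 852 bp. A region spans all peaks joined in it, and members needed peaks in both groups, so the sets are not compared like for like in length. The GC content of the windows was 47.8% (median), against 48.3% in GATA2-only, 47.3% in 9aa-Ins-only and 50.7% in all regions. In the same order, 11.8, 13.2, 12.3 and 16.4% of bases were marked as repeats. Chromosome 12 held 37 members, or 7.92%, against 3.85% of all regions, 3.89% of GATA2-only and 5.04% of 9aa-Ins-only regions. Peaks on chromosome 8 were 7.64 to 7.98% of the 49000 in hi-77+/+ empty libraries and 5.06 to 5.89% in the hi-77-/- libraries, but only 23 members lay there. The part of this in the hi-77+/+ background was not tested.

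The members were nearest to 435 different genes, so few genes had several, and 62 members (13.3%) lay within 100 kb of another member. The nearest start site is a label of position and does not say which gene a region acts on. The exceptions with 3 members each were Runx1 and, on chromosome 14, Olfr1507, whose members lay 586 to 879 kb from its start site within 5.23 kb of T cell receptor alpha variable segments.

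Among members with a peak in all 8 libraries of both proteins, 87 were closed in hi-77+/+ empty. The strongest lay in an intron of Zbtb16 (chr9:48744913-48745373), which encodes PLZF, a zinc finger repressor of progenitors and innate-like lymphocytes. Its ranks were 37.4, 25.8, 25.7 and 31.6% in GATA2 replicates 1 to 4 and 51.7, 34.5, 43.3 and 43.0% in 9aa-Ins replicates 1 to 4, with no deposited hi-77-/- empty peak. All but 1 of the 9aa-Ins values lay above the GATA2 range. A neighbouring member in the same gene (chr9:48666592-48667129, nearest start site Nnmt, a nicotinamide methyltransferase) ranked 34.3, 29.1, 27.3 and 35.6% with GATA2 and 54.5, 46.6, 41.2 and 67.1% with 9aa-Ins. Both carried a WGATAR and a C/EBP motif.

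Other members closed in hi-77+/+ empty differed in which protein ranked them higher. The member in 4932438H23Rik (chr16:91063654-91064341), with a WGATAR and RUNX motif, ranked 16.5, 26.4, 16.4 and 17.8% with GATA2 and 94.9, 74.0, 54.7 and 74.1% with 9aa-Ins. Every GATA2 library ranked it above every 9aa-Ins library, the closest values being 26.4 and 54.7%. The member in an Fgd6 intron (chr10:94098107-94098510), with a C/EBP motif, ranked 50.6, 45.1, 42.1 and 47.2% with GATA2 and 40.7, 36.0, 43.5 and 31.8% with 9aa-Ins. Here the order was the opposite, with 1 overlap. The member in Tomm70a, a receptor for mitochondrial protein import, had both motifs and ranked 52.2, 28.0, 28.0 and 32.3% with GATA2 and 58.9, 61.5, 40.0 and 30.8% with 9aa-Ins. A member upstream of Agps, an enzyme of ether lipid synthesis (chr2:75818492-75819197), had neither motif and no deposited hi-77-/- empty peak, and ranked 60.1, 40.1, 25.1 and 30.8% with GATA2 and 56.3, 45.7, 38.7 and 33.9% with 9aa-Ins.

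Of members with all 8 libraries, 33 were open in hi-77+/+ empty. The strongest lay in an intron of Ahi1, a ciliary gene (chr10:21065565-21066165), and ranked 20.04, 17.2, 19.8 and 31.0% in hi-77+/+ empty, 18.7, 13.8, 15.1 and 13.95% with GATA2 and 65.2, 51.4, 45.6 and 36.1% with 9aa-Ins. It was a strong peak with GATA2 and in hi-77+/+ empty and ranked lower in every 9aa-Ins library. It had a deposited peak in 4 of 4 hi-77-/- empty lists, below the cutoff in each.

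The member in Sgms2, a sphingomyelin synthase (chr3:131474335-131474916), showed the other order, with ranks of 82.7, 69.0, 58.2 and 91.4% in hi-77+/+ empty, 68.9, 47.4, 60.0 and 37.1% with GATA2 and 25.4, 27.8, 22.9 and 25.4% with 9aa-Ins. Every 9aa-Ins library ranked it above every other library. It carried a C/EBP and a RUNX motif. A member 22.0 kb from Cxcr4, the receptor for the stromal chemokine CXCL12 (chr1:128569993-128570626), ranked 39.2, 17.3, 20.9 and 24.6% with GATA2, 39.8, 47.7, 33.7 and 36.9% with 9aa-Ins, and 67.6, 90.8 and 89.0% in the 3 hi-77+/+ empty libraries that had it. Both proteins ranked it above the hi-77+/+ empty libraries. The tandem repeat member in Camk1d (chr2:5318620-5319316) ranked 22.3 to 32.2% with GATA2, 44.6 to 69.7% with 9aa-Ins and 35.7 to 52.9% in hi-77+/+ empty, without a deposited hi-77-/- empty peak. Dedd2, which takes part in apoptosis, had a member with a WGATAR that ranked 31.2 to 43.1% with GATA2, 47.7 to 99.6% with 9aa-Ins and 62.6 to 85.1% in 3 hi-77+/+ empty libraries. Pstpip2, an adaptor of the macrophage cytoskeleton, had a member without either motif that ranked 43.4 to 80.3% with GATA2, 35.1 to 41.9% with 9aa-Ins and 29.3 to 66.7% in hi-77+/+ empty.

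**Figure D5:**
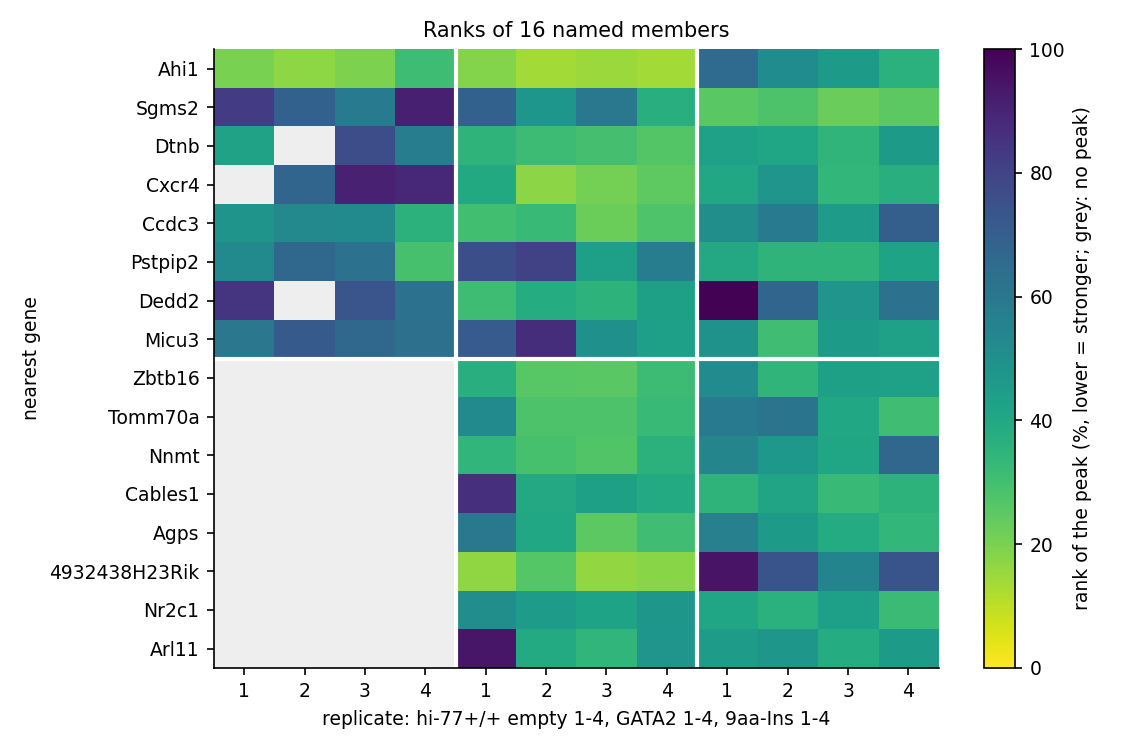
Percentile rank (colour, %, lower is stronger, grey for no peak) of 16 members with a peak in all 8 GATA2 and 9aa-Ins libraries, one row each named by the nearest gene, in the 4 hi-77+/+ empty, 4 GATA2 and 4 9aa-Ins libraries. The upper 8 are open and the lower 8 closed in hi-77+/+ empty; Ahi1 is strong with GATA2 and in hi-77+/+ empty, and Sgms2 is strong with 9aa-Ins.

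By gene lists of progenitor and blood cell roles, 25 members were nearest to a listed gene. Transcription factors of stem and progenitor cells had 9 members, near 6 of the 25 genes listed (1.93% of members, 0.501% of all regions). They were 3 near Runx1, a core regulator of definitive blood formation, 2 near Hhex, a homeobox factor, and 1 each near Zbtb16, Gata2, Ikzf2 and Lmo2. An intronic Runx1 member (chr16:92653872-92654220) carried a WGATAR, a RUNX and an AP-1 motif and ranked 52.3, 31.7, 31.9 and 27.2% with GATA2 and 58.9, 49.7, 46.4 and 60.5% with 9aa-Ins. It had a peak in 1 hi-77+/+ empty library and, in the complete lists, in 2 hi-77-/- empty libraries. The other Runx1 members were weaker, at median ranks of 79.5 and 79.8%. The Lmo2 member, near the gene of an adaptor in the SCL complex, had a median rank of 82.1%.

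The member at Gata2 itself (chr6:88200203-88200879) overlapped an exon, the summit being 2.38 kb from a start site. It had no peak in any hi-77+/+ empty library and no deposited hi-77-/- empty peak, and ranked 80.4, 74.3, 93.0 and 46.4% with GATA2 and 34.1, 42.2, 59.9 and 71.4% with 9aa-Ins. Both vectors carry Gata2 cDNA, so reads from the vector and from the gene cannot be told apart.

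Myeloid genes were represented by monocyte and macrophage loci, with 5 members (1.07% against 0.421% of all regions). They were nearest to Csf1r, the receptor for M-CSF, with 2, and to the lipopolysaccharide sensors Tlr4 and Cd14 and to Spi1, the gene of PU.1. The stronger Csf1r member, in its own intron, had a WGATAR, a C/EBP motif and an E-box with WGATAR, and ranked 25.9 to 36.6% in 4 GATA2 libraries and 69.1 to 93.3% in 3 9aa-Ins libraries. The Tlr4 member had neither motif and ranked 57.7 to 65.8% in 3 GATA2 libraries and 37.2 to 46.0% in 4 9aa-Ins libraries. The intronic Spi1 member (chr2:91089097-91089479) held an ETS motif and ranked 48.2 to 82.8% with GATA2 and 47.0 to 82.6% with 9aa-Ins, so the groups overlapped almost fully. Neutrophil genes had 1 member, near Ms4a3 (0.214% against 0.126% of all regions). The cytokine receptor list held only the 2 near Csf1r (0.428% against 0.328%). Counts this small were not tested.

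Erythroid and megakaryocyte genes had 0 members against 0.210% of all regions, a share at which about 1 member is the background count. Mast cell, basophil and eosinophil genes had 2 (0.428% against 0.211%), near the tryptase gene Tpsab1 and near Il4, the latter among the weakest with a median rank of 87.6%. The B lymphoid list had 1 member (0.214% against 0.142%), at Myl4. G protein coupled receptors had 2 (0.428% against 0.294%), near Cxcr4 and S1pr1, the sphingosine 1-phosphate receptor. Adhesion and matrix genes had 5 (1.07% against 0.378%), 2 upstream of Thbs1 and 1 each near Cd44, Itgb2 and Cd47. The Itgb2 member (chr10:77544831-77545224), in the gene of the leukocyte integrin β2 chain, ranked 68.6 to 95.6% in 3 GATA2 libraries and 42.6 to 75.5% in 4 9aa-Ins libraries.

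The labelled cell type was checked at promoters. All 7 blood genes examined, Ptprc, Kit, Spi1, Runx1, Myb, Cd34 and Flt3, had a peak within 1 kb of a start site in 16 of 16 libraries, and 0 of 4 liver genes (Alb, Afp, Ttr, Apoa1) had one in any. Cd3e, Cd4, Cdh5 and Kdr had none, Col1a1 had one in 15 libraries, Pdgfra in 16 and Hba-a1 in 1. The files give no read totals and library depth is not known. The deposited lists on chromosomes 1 to 19 and X held 49852 to 111743 peaks.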

How the data were processed

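ATAC-Seq peak lists of 16 libraries were analysed. The authors trimmed reads with Trim Galore 0.4.1, aligned them to mm10 (GRCm38) with Bowtie2 2.2.5, kept unique reads, removed duplicates with Picard 2.26.0, shifted reads for transposase binding and called peaks per library with MACS2. Each deposited file gives, per peak, a score, a fold enrichment (a ratio to the background of that library), -log10 p, -log10 q and a summit offset. These depend on depth, so only ranks within a library were used. No read totals are given.

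The 49000 peaks of highest -log10 p per library were merged. Absence of a peak is thus absence from that list. Summits were annotated with GENCODE M21, and the reference within 100 bp of each summit was searched for 9 motifs. Held-out shares and rank differences between members with and without a motif were compared by two-sided exact permutation or sign-flip tests over libraries, with Benjamini-Hochberg adjustment. The smallest p is 0.0286 for 4 against 4 libraries. Analyses used Python 3 with numpy and pandas, and scripts were tested on simulated data. Members and gene lists were chosen with earlier results of these data known. Named members were (a) the 8 of best median rank open and the 8 closed in hi-77+/+ empty among those with all 8 peaks, (b) those nearest to a listed gene and (c) those of genes with at least 3 members. Alternatives changed the number and ranking of peaks, their width, merging and coverage, the libraries required and those used, and the search window and distance.
The planned test of the median rank of all members is given as values only, because the rule used those ranks. The tests of rank by single motif used the same ranks and were not planned, so they are descriptive only. The held-out tests permuted the group labels that had chosen the regions, so their p-values are descriptive only as well. 1 further marker gene is not reported here.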

Additional observations from a re-analysis of the deposited data

Results flagged for a closer look

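The rank of C/EBP members (without WGATAR) minus that of WGATAR members (without C/EBP motif) was above 0 in every GATA2 library (10.9 to 16.6 points) and below 0 in every 9aa-Ins library (-11.2 to -5.27 points). The group means differed by 23.2 points. This difference between classes formed after seeing the values was not tested. The 9 tests of single motifs gave an exact permutation adjusted p of 0.0643 for WGATAR and for C/EBP. They were not planned and used ranks that the rule had used through the cutoff.

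Among 99 groups of 4 values, 4 held a library far from the other 3, and chance gives about 1 in 20. The Cables1 member ranked 86.2% in GATA2 replicate 1 and 39.0 to 43.3% in the other GATA2 libraries. The Cd14 member ranked 86.3% in the same library and 52.3 to 57.8% in the others. The 4932438H23Rik member ranked 26.4% in GATA2 replicate 2 and 16.4 to 17.8% in the others. The S1pr1 member ranked 97.7% in 9aa-Ins replicate 1 and 73.2 to 76.1% in the others.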

How the results depend on the processing

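The number of members, 467, was 245 with the stronger 50% of those peaks, 759 with all deposited peaks, 130 when absence was required of all deposited hi-77-/- empty peaks, 178 with 4 of 4 libraries required, and 298 to 652 when 1 library was left out. The smallest, 298 and 304, came without GATA2 replicate 4 and replicate 3, where 3 of 3 were required. The share open in hi-77+/+ empty, 16.7%, was 28.6% with all deposited peaks, 4.62% with absence from all deposited hi-77-/- empty peaks and 10.7 to 21.8% without 1 library. Without 1 hi-77+/+ empty library it was 10.7 to 11.6%, 3 of 3 being required.

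With all deposited peaks the held-out differences were 20.7 (hi-77+/+ empty), 59.8 (GATA2) and 64.9 points (9aa-Ins) over hi-77-/- empty, and with absence from all deposited hi-77-/- empty peaks -8.32, 62.6 and 64.6 points, each with an exact permutation adjusted p of 0.0381. The second setting, which gave the negative value, set complete hi-77-/- empty lists against 49000 peaks in every other group. With all deposited peaks, list lengths also differed between groups. These p-values are thus descriptive only. Without 1 library the 3 differences were 1.73 to 7.44, 50.4 to 63.9 and 53.8 to 66.3 points. GATA2 minus 9aa-Ins was -11.3 to 3.67 points without 1 library, and positive without 9aa-Ins replicate 1 (1.97), 2 (3.67), 3 (3.00) or 4 (2.58). The median rank difference, -6.93 points, was -15.9 when peaks had to cover 50% of the region, -8.53 with absence from all deposited hi-77-/- empty peaks, -0.978 with all deposited peaks and -10.9 to -2.79 without 1 library.

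The WGATAR share was 61.4% with all deposited peaks, 60.7% with 50% coverage, 60.8% with absence from all deposited hi-77-/- empty peaks, 63.5% with 4 of 4 libraries, 68.7% with 200 bp on each side and 48.7 to 61.2% without 1 library. The C/EBP share, followed after the data were seen like the next value, was 22.7% with all deposited peaks, 37.7% with absence from all deposited hi-77-/- empty peaks and 40.9% with 200 bp on each side. The motif class rank difference was 32.3, 29.1 and 26.4 points with all deposited peaks, absence from all deposited hi-77-/- empty peaks and 4 of 4 libraries, and 21.1 to 28.0 points without 1 library. The share over 3 kb from a start site was 81.2% with the stronger 50% of peaks, 83.1% with all deposited peaks and 97.0% over 1 kb. Causes were not tested.

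Deviations of libraries of the same replicate number were hardly correlated (24 pairs, correlations of -0.0167 to 0.0129). Replicate 1 nevertheless had the weakest median member rank with GATA2 (66.8%) and with 9aa-Ins (73.2%). It also had the lowest held-out share in both groups (73.4 and 81.7%). Whether the numbers pair libraries is not known. With the replicate block the differences were 4.95, 61.9, 64.7, -2.80 and -6.93 points as before, and no p could go below 0.13. The members' excess over GATA2-only and 9aa-Ins-only regions in hi-77+/+ empty stayed above 0 in 25 alternatives each, at 1.23 to 17.3 and 6.94 to 22.5 points, the 1.23 with absence from all deposited hi-77-/- empty peaks. The members lie in the weaker part of the lists and depth is not known, which limits these results.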
